A study of Mus musculus with 3 samples.

Results

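F9 is a mouse embryonal carcinoma line, grown here without any inducer of differentiation. A list of 54 imprinted genes and the imprint-protecting factor Zfp57, 55 genes in all, was followed on 3 Mouse Genome 430 2.0 arrays, each hybridised with total RNA of undifferentiated F9 cells. Members were the genes of the list for which at least 1 probe set carried that symbol alone in the platform annotation. This held for 48 of the 55 genes and 123 probe sets, out of 18193 named genes and 45101 probe sets on the array. Every sample is of the same untreated line, cultured in serum on gelatin and harvested near confluence per the labels' protocols. The line carries no label of genotype, and no differentiated, embryonic or adult sample stood beside it, so each gene was read against the arrays' own background.

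Imprinted genes are transcribed mainly from the chromosome inherited from 1 parent. The choice is carried by DNA methylation laid down in the egg or the sperm at imprinting control regions, and it is kept through early development by KRAB zinc finger proteins such as ZFP57, the corepressor TRIM28 and the maintenance methyltransferase DNMT1. Most imprinted genes lie in clusters that hold both maternally and paternally expressed genes, often with a long noncoding RNA, and many act in growth, placenta or brain. The arrays do not tell the alleles apart: "maternal" and "paternal" below name the allele that is usually expressed in the mouse, as background, and not a measurement in these cells.

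Many control regions lie at promoters and contain TGCCGC, the sequence that ZFP57 recognises when it is methylated. RefSeq promoters of GRCm38.p6 were available for 44 of the 55 genes, and the 250 bases before each start were searched on both strands (TGCCGC or its reverse complement GCGGCA, each counted wherever it starts). The following 5 are shown because each holds a match and belongs to a paternally expressed gene, and because the arrays read these genes differently: Mest, Plagl1, Mcts2 and Zdbf2 lay above background and Nap1l5 did not. Mest and Zdbf2 each have a further promoter without a match, not shown. Capitals mark the matches, and each line runs 5′ to 3′ in the direction of the gene.
Mest, chr6:30737800-30738049, + strand: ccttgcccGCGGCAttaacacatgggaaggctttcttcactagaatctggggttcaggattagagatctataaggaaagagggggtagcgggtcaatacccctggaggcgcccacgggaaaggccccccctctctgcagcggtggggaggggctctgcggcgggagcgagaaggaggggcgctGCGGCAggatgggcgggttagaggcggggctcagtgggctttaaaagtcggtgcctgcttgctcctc
Plagl1, chr10:13090582-13090831, + strand: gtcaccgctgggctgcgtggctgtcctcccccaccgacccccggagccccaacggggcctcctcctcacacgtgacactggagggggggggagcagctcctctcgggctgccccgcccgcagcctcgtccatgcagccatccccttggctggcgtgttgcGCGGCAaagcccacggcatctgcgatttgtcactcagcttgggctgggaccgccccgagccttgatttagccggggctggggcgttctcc
Mcts2, chr2:152686898-152687147, + strand: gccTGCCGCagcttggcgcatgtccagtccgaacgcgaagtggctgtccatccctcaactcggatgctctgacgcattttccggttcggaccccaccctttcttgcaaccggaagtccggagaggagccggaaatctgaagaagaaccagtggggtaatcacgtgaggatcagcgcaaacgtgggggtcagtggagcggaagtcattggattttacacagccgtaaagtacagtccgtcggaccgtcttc
Zdbf2, chr1:63200108-63200357, + strand: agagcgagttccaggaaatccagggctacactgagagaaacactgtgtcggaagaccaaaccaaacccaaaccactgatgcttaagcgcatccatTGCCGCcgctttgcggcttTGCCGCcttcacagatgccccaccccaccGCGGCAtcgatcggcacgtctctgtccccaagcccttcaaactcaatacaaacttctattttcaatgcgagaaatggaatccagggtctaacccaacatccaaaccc
Nap1l5, chr6:58907127-58907376, - strand: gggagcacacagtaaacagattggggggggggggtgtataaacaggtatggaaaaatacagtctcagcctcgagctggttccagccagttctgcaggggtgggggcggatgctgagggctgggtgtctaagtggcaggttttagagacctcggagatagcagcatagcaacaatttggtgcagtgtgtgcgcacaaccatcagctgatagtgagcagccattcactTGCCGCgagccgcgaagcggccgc

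A match was present in the promoters of 9 of the 44 genes (20.5%), against 2660 of 27025 genes (9.84%) in the whole promoter table. A gene counted if any of its promoters held a match. Counted by promoter, the shares were 10 of 68 (14.7%) and 2850 of 32851 (8.68%). Overlapping promoters were counted separately in both shares. Among the 10 are Mest promoters starting at chr6:30737800 and chr6:30737803, which hold the same matches. Member promoters were also richer in CpG: the median was 10 CpG per 250 bases over 68 member promoters and 6 over all 32851. Among promoters with at least 15 CpG, a limit chosen after seeing the data, the shares were 4 of 23 member promoters (17.4%) and 1914 of 8970 overall (21.3%). Matches were found in 5 of 25 genes above background and in 4 of 17 genes not above background. A match is a string of letters and no measured binding site.

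Each array's background threshold was the 95th percentile of the signals of 127 probe sets for olfactory, vomeronasal and taste receptors and keratin-associated proteins, genes of narrow expression. The thresholds of replicates 1, 2 and 3 were signals of 44.6, 46.1 and 43.2. A gene was read from its probe set with the highest mean signal and was called above background when limma's moderated test of log2 signal minus log2 threshold, one-sided and adjusted by Benjamini-Hochberg over all probe sets, gave an adjusted p under 0.05. A log2 value below is always the mean distance from the threshold on the 3 arrays, with its standard error (SE, n = 3), and a gene not above background may still be transcribed. Because probe affinity sets part of each signal, the order of genes by log2 value is no order of transcript levels. The labels do not say whether the replicates were separate cultures, so every p-value covers only the variation among these 3 RNA samples, which could be technical alone.

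The labelled cell type was checked on its markers: Pou5f1, Sox2, Nanog, Utf1, Zfp42 and Dppa5a, 6 pluripotency genes, were all above background, with log2 values from 6.15 to 8.63. Of 5 endoderm markers only Lamb1 passed the test. Gata6 (limma adjusted p = 0.0508) and Sox17 (0.0735) missed it but exceeded the threshold on all 3 arrays, so neither can be taken as absent. Gata4 and Thbd did not pass. None of the 3 measured trophoblast markers passed, the member Ascl2 among them, and of 4 fibroblast markers Thy1 passed while Col1a1, Col1a2 and Col3a1 did not. The part of other cell types in the values below was not tested beyond these markers.

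Of the 48 measured members, 29 (60.4%) were above background, beside 51.1% of all named genes outside the background families. The members' median log2 value was 1.76, and that of all named genes 0.72. The number of probe sets bears on such a share, because the highest of several was used. With the median of a gene's probe sets instead, 20 members (41.7%) were called, beside 43.6% of all named genes. Members with 1 probe set were called in 11 of 18 cases (61.1%), against 36.1% of all genes with 1 probe set. Those with several were called in 18 of 30 cases (60%), against 66.2% of all such genes. The same 29 members exceeded the threshold on all 3 arrays, and of the 19 others 0 had an unadjusted limma p under 0.05.

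**Figure D1:**
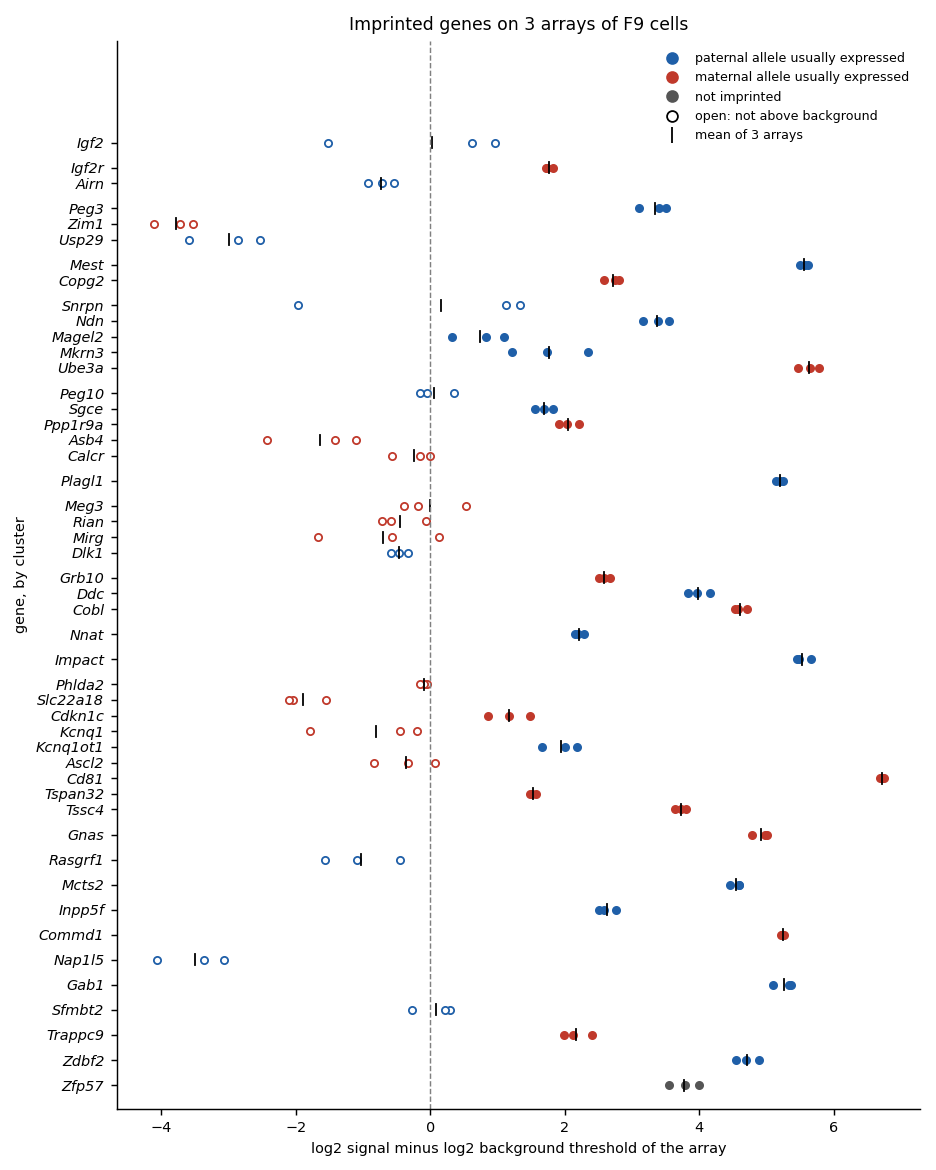
Signals of the 48 measured genes, grouped by cluster, as log2 signal minus log2 background threshold of the same array (horizontal axis); points are the 3 arrays, the short black line is their mean, and open points mark genes not above background. The 4 measured genes of the Dlk1-Dio3 cluster sit near or below the dashed threshold, whereas Mest, Ube3a, Impact and Cd81 lie more than 5 log2 units above it.

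By the allele usually expressed, 15 of 24 measured paternal genes (62.5%) and 13 of 23 maternal genes (56.5%) were above background, with median log2 values of 1.86 and 1.52. Both shares stood beside 51.1% of all named genes. With the median of each gene's probe sets in place of the highest, 11 paternal (45.8%) and 8 maternal genes (34.8%) were called, beside 43.6% of all named genes. The members were also split by how widely they are known to be imprinted. Genes imprinted in most tissues where they are expressed were called in 15 of 31 cases (48.4%). Those imprinted only in certain tissues, such as placenta or brain, or for certain transcripts, were called in 13 of 16 (81.2%). Among maternal genes the counts were 3 of 11 in the broad class and 10 of 12 in the restricted class, with median log2 values of -0.46 and 3.22. Among paternal genes they were 12 of 20 and 3 of 4, with medians of 1.73 and 3.30. Genes of a class were not independent loci. Among the maternal broad genes not called, Meg3, Rian and Mirg share the Dlk1-Dio3 cluster, and Phlda2, Slc22a18 and Kcnq1 the Kcnq1 domain. These class counts rest on the highest probe set, and several probe sets were present for 12 of 16 restricted and 18 of 31 broad genes. With the median of probe sets, the restricted genes Ppp1r9a, Gnas and Trappc9 and the broad genes Sgce and Kcnq1ot1 fell below the threshold. A further 4 members, the broad gene Grb10 among them, lost their call with a value still above it. The shares of 48.4% and 81.2% therefore hold for the highest probe set only. The classes were not recounted under that setting. No test was run between these classes, and both the classes and the list were drawn up with earlier results of these arrays known.

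**Figure D2:**
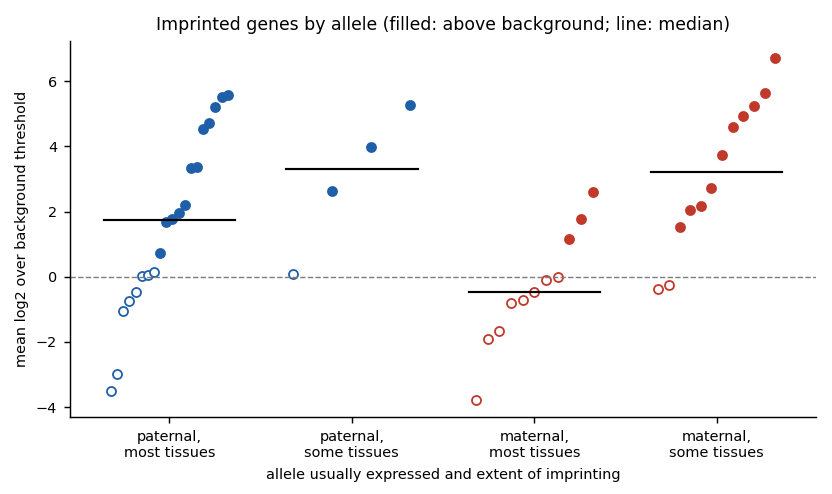
Mean log2 distance from the background threshold (vertical axis) for the 47 measured imprinted genes, split by the allele usually expressed and by whether imprinting is known in most tissues or only in some tissues or transcripts; each circle is a gene, filled where it was above background, and black lines are medians. The median of maternal genes imprinted in most tissues lies below the threshold at -0.46, and the other 3 medians lie above it.

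No measured gene of the Dlk1-Dio3 cluster on chromosome 12 was above background. Its paternal chromosome normally gives Dlk1, a transmembrane ligand that restrains differentiation, and its maternal chromosome gives the noncoding RNAs Meg3 (Gtl2), Rian and Mirg, which host snoRNAs and microRNAs. None of the 19 probe sets for these 4 genes passed limma's test, and of the 4 genes 0 had an unadjusted p under 0.05. Dlk1 had signals of 35.3, 33.3 and 28.9 on replicates 1, 2 and 3, below the threshold on every array (log2 -0.46 ± 0.12 SE). Meg3, with 11 probe sets, read 39.2, 35.2 and 62.5 on the highest of them, crossing the threshold on replicate 3 alone (log2 -0.01 ± 0.24 SE). Rian read 27.1, 43.9 and 28.9. Mirg read 14.1, 50.3 and 29.0, with replicate 2 above the threshold and the others below it.

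The genes on either side of that cluster were read in the same way. Flanking genes were the 5 nearest measured protein-coding genes on each side in the RefSeq gene table. Members and the other imprinted genes listed further below were passed over, here and for every cluster. Of these flanking genes, 7 of 10 were above background, and Slc25a29, Wdr25 and 1700001K19Rik were not. Beside this count, 51.1% of all named genes were called, and 66.2% of those with several probe sets. The same shares stand beside the flanking counts of the other clusters. Yy1, a zinc finger factor, read 3557, 3348 and 3651 (log2 6.30), and Wars, the tryptophanyl-tRNA synthetase gene, read 1582, 1495 and 1432 (log2 5.07). Beyond the other end, Ppp2r5c, a regulatory subunit of protein phosphatase 2A, read 1933, 1923 and 2104 (log2 5.48), and Hsp90aa1, a chaperone gene, read 10590, 11954 and 12129 (log2 8.02). These neighbours were named after their values were seen.

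At Grb10 on chromosome 11, 3 of 3 members and 2 of 10 flanking genes were above background, beside 51.1% of all named genes. Mest gave a like count, with 2 of 2 members and 3 of 10 flanking genes. Counts this small show no arrangement of members against neighbours, and no test was run between them. Grb10, an adaptor that dampens insulin and IGF receptor signalling, read 282.6, 277.0 and 246.1 (log2 2.59 ± 0.11 SE; limma adjusted p = 0.00027). Ddc, the aromatic amino acid decarboxylase gene, imprinted in the heart, read 632, 717 and 769 (log2 3.98 ± 0.13 SE), and Cobl, an actin nucleator gene, read 1063, 1205 and 998 (log2 4.61 ± 0.11 SE). In each of these 3 genes the arrays lay close together, yet only 1 probe set per gene was called. The other probe sets lay at log2 0.02 and -0.31 for Grb10, -2.52 for Ddc and -1.37 for Cobl. The count of 3 members therefore rests on the highest probe set of each gene.

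In the Snrpn-Ube3a cluster on chromosome 7, the mouse counterpart of the Prader-Willi and Angelman region, 4 of 5 members were above background, and 5 of 10 flanking genes. Ndn, which encodes the MAGE-family protein necdin, read 466, 411 and 507 (log2 3.36 ± 0.14 SE), and 5 of its 8 probe sets were called. Mkrn3, a RING finger gene, read 149, 107 and 219, all above the threshold but spread by 0.52 (SD of log2), the widest spread among called members. Magel2, another MAGE gene, was called with the lowest log2 value among members, at 78.7, 98.1 and 54.1 (log2 0.74 ± 0.20 SE; limma adjusted p = 0.0417). That call was lost without replicate 1 (adjusted p = 0.158), without replicate 2 (0.144) and with the 99th percentile as threshold (0.287). Ube3a, the maternal ubiquitin ligase gene whose imprinting is known from neurons, read 2227, 2050 and 2372 (log2 5.63 ± 0.13 SE), and 5 of its 6 probe sets were called.

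Snrpn, which encodes the spliceosomal protein SmN, was not above background on the probe set that names it alone. It read 112, 11.7 and 94.5, so replicate 2 stood far under the other arrays (log2 0.16 ± 0.85 SE; limma adjusted p = 0.975). Without replicate 2 the log2 value was 1.23 and the gene was called (adjusted p = 0.0206). Another 6 probe sets are annotated to Snrpn together with Snurf, the reading frame on the same transcript, and were not used here. The paralog Snrpb, whose product closely resembles SmN, read 5211, 5353 and 4906.

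The Kcnq1 domain, also on chromosome 7, had 5 of 9 members above background, and 3 of 10 flanking genes. Its noncoding RNA Kcnq1ot1, transcribed from the paternal chromosome and antisense to Kcnq1, read 178, 146 and 195 (log2 1.95 ± 0.16 SE; limma adjusted p = 0.0014), on 2 of 6 probe sets. Kcnq1 itself, a potassium channel gene, read 32.6, 40.3 and 12.5, below the threshold on every array. These transcripts overlap, and their probe sets are told apart by the annotation only.

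The protein-coding genes that this RNA silences on the paternal chromosome were divided. Cdkn1c, which encodes the CDK inhibitor p57, read 100.2, 128.1 and 77.9 (log2 1.17 ± 0.18 SE; limma adjusted p = 0.00809). Phlda2, a brake on placental growth, read 43.1, 43.0 and 38.8, just under the threshold on all arrays (log2 -0.10 ± 0.11 SE). Slc22a18, a transporter gene, read 10.9, 15.8 and 9.99. Ascl2, a bHLH factor of trophoblast, read 46.9, 25.7 and 34.2, over the threshold on replicate 1 only.

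Between Ascl2 and Kcnq1ot1 in that domain lie 3 further called genes, whose imprinting is known mainly in the placenta. Cd81, a tetraspanin gene, read 4781, 4773 and 4535 (log2 6.72 ± 0.11 SE). Tssc4 read 590, 640 and 540 (log2 3.72 ± 0.11 SE). Tspan32, another tetraspanin gene, read 127.6, 128.1 and 128.6 on the called probe set (log2 1.52 ± 0.11 SE; limma adjusted p = 0.000944), and its other probe set lay below the threshold at log2 -0.70.

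Of the classic growth pair on chromosome 7, Igf2 was measured and H19 was not, because the H19 probe set is annotated to Mir675 as well. Igf2, the fetal insulin-like growth factor, read 68.2, 89.7 and 15.1 on the higher of its probe sets. Replicates 1 and 2 lay above the threshold and replicate 3 well below it (log2 0.02 ± 0.62 SE), and the gene was not called. Igf2r, the maternal receptor that clears IGF2, read 158, 154 and 142 (log2 1.76 ± 0.11 SE; limma adjusted p = 0.000653), with 2 of 2 probe sets called. Airn, the paternal noncoding RNA that overlaps it and is known to silence it in cis, was above background on none of its 5 probe sets, and the highest read 30.8, 27.9 and 22.7. For Igf2r and Airn alike, 1 further probe set carried several symbols and was not used. Both Igf2 and Airn missed the test in all alternatives listed for these members, whereas Igf2r passed in all of them. Of the flanking genes, 7 of 10 were called beside the Igf2r-Airn pair and 2 of 10 beside Igf2-H19. All Igf2-H19 flanking genes but Trpm5 were also counted as flanking genes of the Kcnq1 domain, so those counts overlap. Trpm5 itself lies inside that domain.

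At Peg3, a zinc finger gene, the paternal transcript read 473, 398 and 491 (log2 3.34 ± 0.14 SE; limma adjusted p = 0.000264), on 3 of 5 probe sets. Usp29, which shares the promoter region of Peg3 and runs the other way, read 7.69, 3.82 and 5.94. The maternal neighbour Zim1 read 3.84, 3.50 and 2.49. Signals of Usp29 and Zim1 were far below the threshold on every array. Thus 1 of 3 members of this cluster was called, beside 4 of 10 flanking genes.

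Mest, a hydrolase-family gene of mesoderm and fetal growth, was read by a single probe set at 2022, 2187 and 2120 (log2 5.56 ± 0.11 SE; limma adjusted p = 0.000109). Its antisense neighbour Copg2, a coatomer subunit gene with weak maternal bias, read 268, 322 and 290 (log2 2.71 ± 0.12 SE). Both genes of this pair were therefore above background, beside 3 of 10 flanking genes.

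The Peg10-Sgce cluster on chromosome 6 was mixed, with 2 of 5 members called, beside 6 of 9 flanking genes. Of the other measured protein-coding genes inside it, 1 of 5 was called. Casd1 and Pon2, called, and Pon3 and Tfpi2, not called, were left out of these counts as imprinted genes outside the list. Sgce, which encodes epsilon-sarcoglycan, read 158, 149 and 127 (log2 1.69 ± 0.12 SE), on 1 of 2 probe sets. Ppp1r9a, a neurabin gene imprinted in extraembryonic tissue, read 168, 188 and 199 (log2 2.05 ± 0.12 SE), on 2 of 5 probe sets. Peg10, a retrotransposon-derived gene needed for the placenta, read 43.2, 59.0 and 38.7, above the threshold on replicate 2 only (log2 0.05 ± 0.16 SE). Calcr, the calcitonin receptor gene, read 30.1, 41.6 and 43.1, and Asb4, a SOCS-box gene, read 8.25, 21.5 and 16.2, below the threshold on every array. Peg10 shares its promoter region with Sgce, so these neighbours gave different calls, on different probe sets.

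Several paternal genes outside the large clusters were above background. Plagl1 (Zac1), a zinc finger factor that regulates other imprinted genes, read 1574, 1691 and 1642 (log2 5.20 ± 0.11 SE). That reading came from 1 of 3 probe sets, of the _x_at type that may share probes with other transcripts, and the other probe sets lay at log2 -0.58 and -0.44. Impact, a regulator of the amino acid stress kinase GCN2, read 2266, 2014 and 1923 (log2 5.53 ± 0.12 SE). Zdbf2 read 1151, 1074 and 1279 (log2 4.71 ± 0.13 SE). Nnat, a neuronal proteolipid gene, read 198, 211 and 209 (log2 2.21 ± 0.11 SE).

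Among the retrogenes, which arose by copying of a spliced transcript into an intron of another gene, Mcts2 and Nap1l5 differed. Mcts2, from a single probe set, read 1075, 1011 and 1036 (log2 4.54 ± 0.11 SE). Its parent gene Mcts1 read 1808, 1671 and 1855, and as the copies resemble each other the Mcts2 signal is uncertain. Nap1l5 read 2.67, 5.49 and 4.17, far below the threshold on every array. The promoters printed above for these genes both hold a TGCCGC match.

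Of the remaining paternal genes, 3 are known as imprinted only in certain tissues or for certain transcripts. Gab1, a docking protein gene of receptor tyrosine kinases imprinted in placenta, read 1799, 1570 and 1783, with 3 of 3 probe sets called (log2 5.26 ± 0.13 SE). Inpp5f, an inositol phosphatase gene of which only a brain variant is imprinted, read 254, 276 and 293 (log2 2.62 ± 0.12 SE). Sfmbt2, a polycomb-type gene imprinted in extraembryonic tissue, read 36.8, 56.2 and 50.4 and was not called (log2 0.08 ± 0.17 SE; limma adjusted p = 0.788). Rasgrf1, a Ras exchange factor gene of the broadly imprinted class, read 21.0, 33.6 and 14.5.

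On the maternal side, Gnas encodes the stimulatory G protein subunit and read 1425, 1451 and 1194 (log2 4.92 ± 0.12 SE). This complex locus makes several transcripts, and 1 of its 5 probe sets was called. Commd1, a copper and NF-kappa-B regulator, read 1661, 1739 and 1649, with 2 of 2 probe sets called (log2 5.24 ± 0.10 SE), beside 7 of 10 flanking genes. Trappc9, a trafficking complex gene with maternal bias in brain, read 235, 183 and 187 (log2 2.17 ± 0.14 SE), on 1 of 3 probe sets, beside 6 of 10 flanking genes.

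No probe set named Dio3, Rtl1, Nespas, Zrsr1, Peg13 or H19 alone, and none carried the listed name Slc38a4x, so these 7 entries were not analysed here. The amino acid transporter gene Slc38a4, imprinted in placenta, was measured under its own symbol among the other imprinted genes. It read 270, 255 and 340 (log2 2.68 ± 0.16 SE; limma adjusted p = 0.000604), with 2 of 2 probe sets called.

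**Figure D3:**
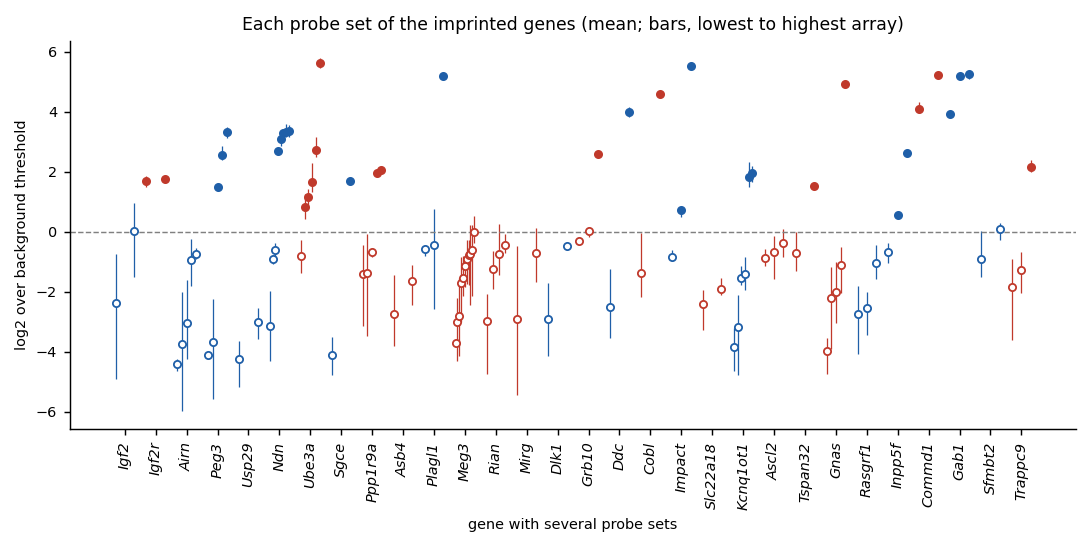
Every probe set of the 30 imprinted genes with several, as mean log2 distance from the background threshold (vertical axis), with bars from the lowest to the highest of the 3 arrays; blue marks paternal and red maternal genes, and filled points were above background. In 15 of the 30 genes filled and open points stand side by side, as in Plagl1, Gnas and Kcnq1ot1.

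Probe sets for the same gene often disagreed. Of the 30 members with several, 15 had some above background and some not, 3 had all above and 12 had none. Over single probe sets, 47 of 123 (38.2%) were above background, beside 38.2% of all probe sets outside controls and background families. At that level the members' share equalled that of the array as a whole, whereas the 60.4% of members and the 51.1% of named genes each take a gene by its highest probe set.

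The spread between arrays was small for called members. The median SD of log2 signal was 0.12 among the 29 called members and 0.12 among all 9237 called genes. It ran from 0.0059 in Tspan32 to 0.52 in Mkrn3. Replicate 3 gave the highest distance from the threshold in 15 of the 29, replicate 1 in 8 and replicate 2 in 6; the threshold itself was lowest on replicate 3.

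Of the genes listed as setting, keeping, reading or erasing imprints, 27 of 29 measured (93.1%) were above background, beside 51.1% of all named genes. The list of 32 includes Zfp57, general chromatin genes such as Rbbp4, and Zfp42, also counted above as a pluripotency marker. Several probe sets were present for 20 of the 29, and 66.2% of all genes with several were called. Over single probe sets, 61 of 77 were called, beside 38.2% of all probe sets outside controls and background families. Zfp57, the KRAB zinc finger protein that binds methylated TGCCGC, read 613, 735 and 506 (log2 3.78 ± 0.15 SE; limma adjusted p = 0.000217). Its corepressor Trim28 read 8247, 9057 and 8135 (log2 7.57 ± 0.11 SE), and Zfp445, a further zinc finger protein that protects imprints, 1328, 1170 and 1417 (log2 4.87 ± 0.13 SE). Setdb1, the H3K9 methyltransferase gene recruited by Trim28, read 707, 720 and 674.

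Genes that maintain or place DNA methylation followed. Dnmt1, the maintenance methyltransferase, read 1984, 2104 and 1740 (log2 5.44 ± 0.11 SE), and its guide Uhrf1 read 2510, 2640 and 2517 (log2 5.84 ± 0.11 SE). Dnmt3l, a cofactor needed for maternal imprints in the egg, read 1877, 1685 and 1702 (log2 5.30 ± 0.11 SE). Ctcf, the insulator protein of the Igf2-H19 control region, read 1527, 1524 and 1921 (log2 5.21 ± 0.15 SE). Kdm1b, a histone demethylase needed for imprints in the oocyte, read 179, 210 and 194 (log2 2.12 ± 0.11 SE). Dppa3 (Stella), which shields methylation in the early embryo, read 92.2, 91.4 and 110.6 (log2 1.13 ± 0.14 SE).

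Among the enzymes that oxidise methylcytosine, Tet1 read 1105, 1080 and 1430 and Tet2 read 1078, 912 and 877, both above background, while Tet3 read 8.56, 6.99 and 8.05 on its only probe set. The other gene of the list below the threshold was Nlrp5, an oocyte gene, at 2.55, 1.71 and 5.89. The polycomb genes Eed (log2 6.44) and Suz12 (log2 5.35), whose complex represses some imprinted genes without DNA methylation in extraembryonic cells, were above background.

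**Figure D4:**
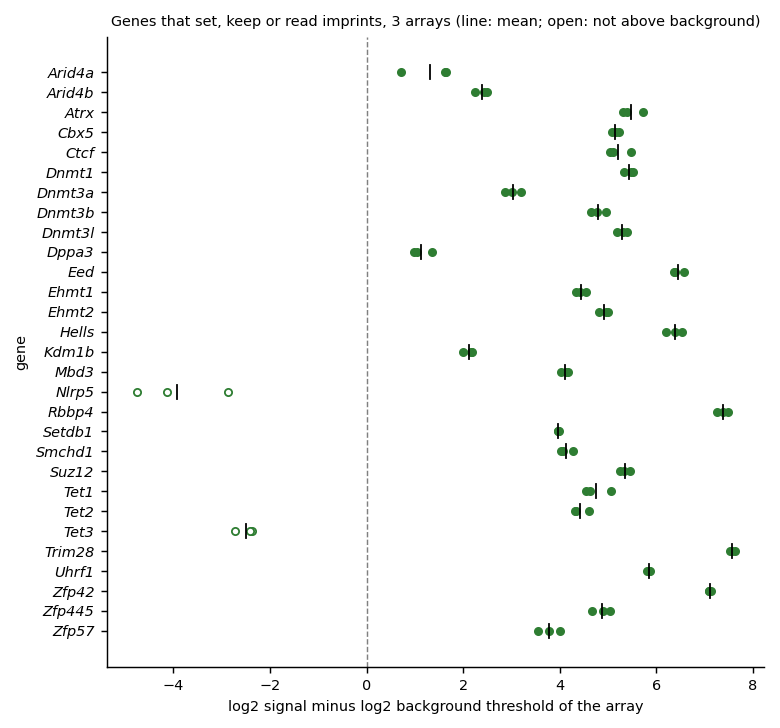
Signals of the 29 measured genes that set, keep or read imprints, in alphabetical order, as log2 signal minus log2 background threshold of the same array (horizontal axis); points are the 3 arrays and black lines their mean. Tet3 and Nlrp5, with open points, lie left of the dashed threshold, and the other 27 genes lie right of it.

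Imprinted genes outside the list gave another picture, with 12 of 34 measured genes above background (35.3%) from a list of 41, beside 51.1% of all named genes. Called were Jade1, a histone acetylation scaffold gene (log2 5.75), Nap1l4, a histone chaperone gene beside Phlda2 (log2 5.32), and Ago2, the core of the microRNA effector complex (log2 4.61). Bcl2l1, Pon2, Dhcr7, Casd1 and Blcap also passed, with log2 values from 2.85 to 3.29. Ano1, Atp10a, Cmah and Dcn were not above background, with log2 values from -2.43 to -0.38. Several probe sets were present for 14 of these 34 genes, beside 30 of the 48 members, and the highest was used in both. Many genes of this list are known as imprinted in placenta or brain only, and whether that bears on the share was not tested.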

How the data were processed

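The authors measured biotin-labelled total RNA on 1 Mouse Genome 430 2.0 array per replicate and used GCOS 1.4, per the submitters' processing notes. The deposited values are linear signal intensities, scaled by the authors so that the mean after trimming 2% at each end was 250.002 on every array. For the signal algorithm, the detection calls and any build, the method is not given in the sources used here. Scaling hides changes in total RNA per cell. Symbols came from the platform annotation: 34945 probe sets had 1 symbol, 932 several and 9160 none; 64 were controls.

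Log2 distances from each array's threshold were fitted with limma 3.58.1 in R 4.3.3 (intercept, eBayes). Of 114 background genes 1 was called, a count fixed by construction. On simulated arrays of 45101 probe sets, 0% of 200 set at the threshold, 97.5% of 200 set 1 log2 unit above it and 100% of 200 set 2 units above it were called. The number of arrays limits the precision. Members, classes and lists were chosen with earlier results of these data known. All measured members are named; other imprinted genes are named by the rule of the 8 called with the largest log2 values, which orders probe sets for naming only, the 4 alphabetically first not called, and Slc38a4. Alternatives changed the percentile, the background families, the probe set per gene, normalization, a signal offset of 16, the test and the replicates.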

Additional observations from a re-analysis of the deposited data

How the results depend on the processing

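Of the 48 members, 37 kept their call under every alternative run, and 46 did so under those that left the probe set per gene as it was. The exceptions among these were Magel2 and Snrpn, given above. Quantile normalization, the offset, olfactory receptors alone, the 90th percentile and the count without a test changed no member's call. Leaving out 1 replicate gave 28 to 29 members above background, 14 to 15 paternal and 13 maternal genes, 26 to 27 regulators and 11 other imprinted genes. The choice of probe set mattered more. With the median of a gene's probe sets, 20 of 48 members (41.7%) were called, beside 43.6% of all named genes, so the members' share no longer exceeded that of all genes. The maternal count fell from 13 to 8. Under that setting Sgce lay at log2 -1.22, Ppp1r9a at -0.44, Kcnq1ot1 at -1.47, Gnas at -1.55 and Trappc9 at -1.20, below the threshold. A further 4 members, Grb10 among them, lost their call there with a value still above the threshold. With the probe set chosen by suffix, Sgce lay at -4.13, Plagl1 at -0.58 and Gnas at -1.10. Without the _s_at and _x_at probe sets, Plagl1 lay at -0.44 and Gnas at -1.11. These settings read other probe sets of the same genes. No paired analysis was possible because all arrays form 1 group.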
